A study of Homo sapiens with 16 samples.

Results

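Serine synthesis and the folate-dependent transfer of one-carbon units were followed through 9 enzymes in LNCaP cells, an androgen-sensitive human prostate cancer line. The members were PHGDH, PSAT1, PSPH, SHMT1, SHMT2, MTHFD1, MTHFD1L, MTHFD2 and ALDH1L2, selected on their gene symbols from 20531 entries of the count table. PSAT1 was included because its mRNA was lower after SLIRP siRNA in these same libraries, so its difference between siRNAs is given as a description, with no test. The other 8 enzymes were included by pathway, to ask whether they followed PSAT1. These enzymes and the gene lists below were chosen with earlier results of these data known.

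Cells were transfected for 24 h at 40 nM with siRNA of a nonsense sequence (NS) or with pooled siRNAs directed at SLIRP, an RNA-binding protein. They were then placed in serum-free medium containing ethanol as vehicle (Veh) or dihydrotestosterone (DHT), the potent natural androgen, at 1 nM for 24 h. This gave 4 groups of 4 libraries each, named NS-1nM DHT, NS-Veh, SLIRP-1nM DHT and SLIRP-Veh. Every NS library came from the same nonsense sequence and every SLIRP library from the same pool, so that loss of SLIRP and effects of the siRNA sequences on other mRNAs cannot be told apart.

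In the phosphorylated pathway, PHGDH oxidizes the glycolytic intermediate phosphoglycerate, PSAT1 transfers an amino group from glutamate to the product, and PSPH removes the phosphate to release serine. SHMT1 in the cytosol and SHMT2 in mitochondria then move the hydroxymethyl carbon of serine to tetrahydrofolate, leaving glycine. MTHFD1, MTHFD1L, MTHFD2 and ALDH1L2 interconvert the folates that carry this carbon, which is used to make purines, thymidylate and methionine. In many tumour cells PHGDH, PSAT1, PSPH, SHMT2 and MTHFD2 are known targets of the transcription factor ATF4, which is induced by amino acid shortage.

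PSAT1 lies on hg19 chr9:80912041-80945009 on the plus strand and MTHFD1 on chr14:64854749-64930175, also on the plus strand. These were the 2 members that differed most between siRNAs, in opposite directions, and short stretches of their promoters are shown to place them. RefSeq promoter windows (GRCh38.p14, 250 bases before to 50 after the start) were available for 6 of the 9 members, and no window was found for PSPH, SHMT2 or ALDH1L2. The 250 bases before the PSAT1 start hold the letters CCAAT, the core of the box bound by NF-Y, in 3 places. Their first bases lie at −113, −83 and −52 relative to the start. Before the MTHFD1 start, CCAAT is found once, at −216, and also CACGTG, the E-box bound by MYC and related factors, at −15. Positions in the 50 bases after the start were not listed. Capitals mark the matched letters, read 5′ to 3′ on the plus strand.
PSAT1, chr9:78297000-78297029: tcagaagcgcgaCCAATggggatgtgagct
PSAT1, chr9:78297030-78297059: ccttcgcgcgaaCCAATtagcgcagggcct
PSAT1, chr9:78297061-78297090: cgacagcacgggCCAATggggcgccgactc
MTHFD1, chr14:64388125-64388154: tctttctttccgCCAATcatttccgccagc
MTHFD1, chr14:64388323-64388352: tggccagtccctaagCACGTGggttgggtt

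The 6 members had 9 windows, because MTHFD1L has several annotated starts, so genes were counted as holding a motif where any of their windows held it on either strand. CCAAT was found in 6 of 6 members and in 39.7% of 27305 genes with RefSeq windows of the same length. CACGTG was found in 2 of the 6 (MTHFD1 and MTHFD1L) and in 8.77% of all genes. The letters TGATGNAA, a core of the element bound by ATF4 with C/EBP factors, were found in MTHFD1L alone among the 6 and in 4.46% of all genes. Counted by window, the shares over all 35116 windows were 34.6%, 7.26% and 3.62%, and 8, 4 and 3 of the 9 member windows held the letters. A match of letters is no evidence of binding, and none of these counts was tested.

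The 16 libraries held between 436353 and 1689708 counts assigned to genes, and the 9 members took between 0.110% and 0.133% of them. A count of 0 allows up to 3 counts in a library, or 1.78 to 6.88 CPM (counts scaled for library size), for counting error only. SLIRP itself, listed as C14orf156, was at 45.1 to 64.0 CPM in the NS libraries and at 1.42 to 8.06 CPM in the SLIRP libraries, so every library followed its siRNA label. All 10 markers of LNCaP identity that were looked up, among them KLK3 and FOLH1, were detected. KLK2 went down to 1.33 CPM in the NS libraries, a level that a count of 0 would also allow. Of 7 markers of leukocytes, endothelium, fibroblasts and basal cells, PTPRC, PECAM1, KRT5 and TP63 were at 0 in every library, and the list summed to between 5.69 and 24.03 CPM, mostly COL1A1. The libraries of a group came in pairs from separate experiments, so 4 libraries are not 4 independent experiments, and the sources used here do not say which replicate numbers share one. After the group means were taken out, the first principal component (17.6% of the variance) put replicates 1 and 2 on one side and 3 and 4 on the other in 15 of 16 libraries, all but SLIRP-Veh replicate 1. The p-values treat the libraries as independent and measure the spread between them, which may in part be technical. With replicates 1 and 2 against 3 and 4 as a block, chosen after the data were seen, the members called were the same in number in every comparison.

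Levels of different enzymes were compared only after division by the length of each canonical transcript, in CPM per kilobase. In the 8 NS libraries PHGDH was highest at 165 ± 20.5 CPM per kilobase (SD, n = 8), followed by PSAT1 at 132 ± 24.8 and SHMT2 at 121 ± 7.03. The ranges of PHGDH and PSAT1 overlapped, as did those of PSAT1 and SHMT2. MTHFD1 came next at 45.6 ± 6.08, then PSPH at 34.7 ± 6.17, SHMT1 at a median of 30.2 and MTHFD2 at 24.5 ± 1.56, and each overlapped its neighbour among these 4. MTHFD1L was lower than all of these in every NS library, at 5.596 ± 1.77 CPM per kilobase, and ALDH1L2 was at 0 to 0.424.

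In the 8 SLIRP libraries PSAT1 had left the upper end of this order. It moved from rank 2 to rank 7, at 27.7 ± 5.15 CPM per kilobase (SD, n = 8), where its range overlapped those of SHMT1, PSPH and MTHFD2. MTHFD1 moved from rank 4 to rank 3, at 78.9 ± 12.1 CPM per kilobase, below every SHMT2 value and above every SHMT1 value. PHGDH at 177 ± 22.04, SHMT2 at 125 ± 11.8 and PSPH at 34.8 ± 5.54 kept levels close to those in the NS libraries. After SLIRP siRNA the transaminase of serine synthesis was thus expressed at a level near that of the phosphatase PSPH, whereas in NS cells it was near that of PHGDH.

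**Figure D1:**
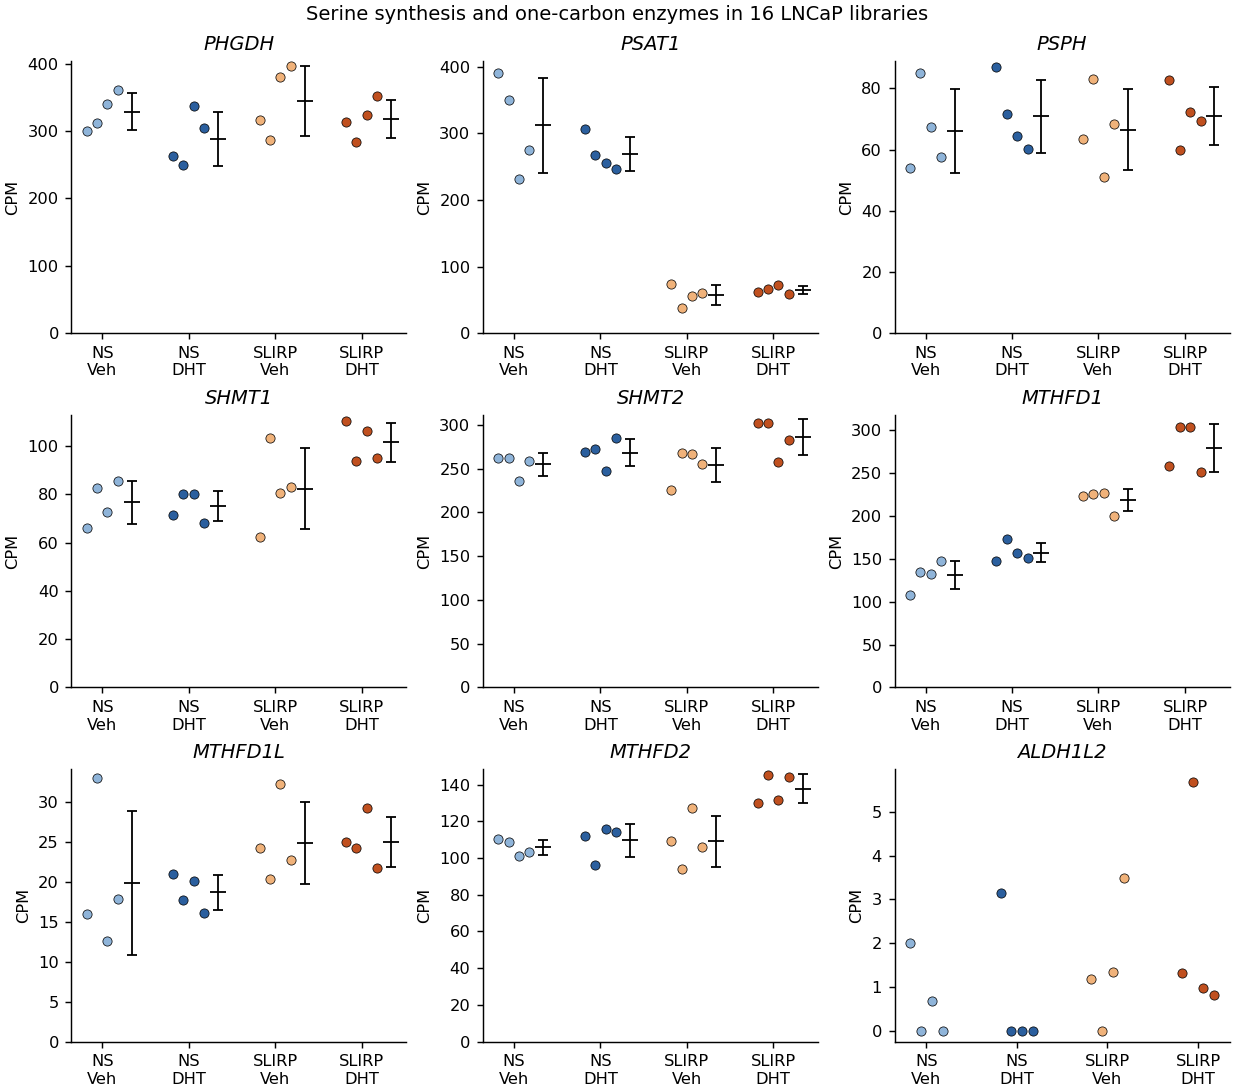
Expression of the 9 enzymes in CPM (vertical axis, linear, a separate scale for each enzyme) in each of the 16 libraries, grouped by siRNA and treatment; bars show mean ± SD of 4 libraries, omitted for ALDH1L2, which had 0 to 4 counts. The PSAT1 points of the SLIRP libraries (37.6 to 74.0 CPM) sit far below those of the NS libraries (232 to 391 CPM), whereas the MTHFD1 points of the SLIRP libraries all sit above those of the NS libraries.

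PSAT1, the aminotransferase of the pathway, was at 391, 349, 232 and 275 CPM in replicates 1 to 4 of NS-Veh and at 306, 267, 256 and 247 CPM in NS-1nM DHT. In the SLIRP libraries PSAT1 was at 74.0, 37.6, 56.4 and 61.3 CPM with vehicle and at 61.7, 66.9, 72.2 and 58.8 CPM with DHT. The highest SLIRP library was below the lowest NS library in both treatments. The fitted log2 difference between siRNAs over vehicle and DHT together was −2.18, or 4.54-fold lower, a size that PSAT1 was chosen for. It was −2.28 with vehicle and −2.05 with DHT. In bulk RNA, fewer expressing cells and less PSAT1 mRNA per cell cannot be told apart.

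Within the NS libraries, PSAT1 also differed by replicate number. The ratio of PSAT1 to PHGDH counts was 1.30 and 1.12 in replicates 1 and 2 of NS-Veh against 0.681 and 0.764 in replicates 3 and 4. In NS-1nM DHT it was 1.17 and 1.07 against 0.757 and 0.812. With replicates 1 and 2 alone the PSAT1 log2 difference between siRNAs was −2.36 and with replicates 3 and 4 alone it was −1.999, a split chosen after the data were seen.

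PHGDH, the dehydrogenase that opens the pathway, did not follow PSAT1. It was at 300.4, 311, 341 and 361 CPM in NS-Veh and at 316, 287, 379.9 and 396 CPM in SLIRP-Veh. With DHT it was at 262, 249.9, 338 and 304 CPM in NS and at 313, 283, 324 and 351 CPM in SLIRP libraries. The groups overlapped in both treatments. The log2 difference over all 16 libraries was 0.11 ± 0.081 (SE), with a 95% interval from −0.060 to 0.27 (adjusted p = 0.300, edgeR quasi-likelihood test with Benjamini-Hochberg adjustment over all genes), so that a fall of the size seen for PSAT1 lay outside the interval.

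PSPH, the phosphatase that completes serine synthesis, also overlapped between siRNAs. Its CPM was 54.1, 84.9, 67.3 and 57.7 in NS-Veh and 63.4, 83.1, 51.0 and 68.3 in SLIRP-Veh. With DHT it was 87.1, 71.7, 64.5 and 60.1 in NS and 82.8, 59.8, 72.2 and 69.3 in SLIRP libraries. The log2 difference was 0.014 ± 0.11 (SE), with a 95% interval from −0.21 to 0.24 (adjusted p = 0.934 by edgeR). The first and last enzymes of serine synthesis therefore differed by less than the spread between libraries, while the middle enzyme was several-fold lower.

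Ratios of counts within a library do not depend on library size. Those with PSAT1 repeat the fall for which it was chosen, so they are a description. PSAT1 to PHGDH had a median of 0.940 in the 8 NS libraries, with a range from 0.681 to 1.30, and a median of 0.182 in the 8 SLIRP libraries, with a range from 0.131 to 0.236. PSPH to PHGDH had medians of 0.198 in NS and 0.206 in SLIRP libraries, with overlapping ranges. PSAT1 to PSPH was between 3.45 and 7.22 in NS libraries and between 0.453 and 1.17 in SLIRP libraries.

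**Figure D2:**
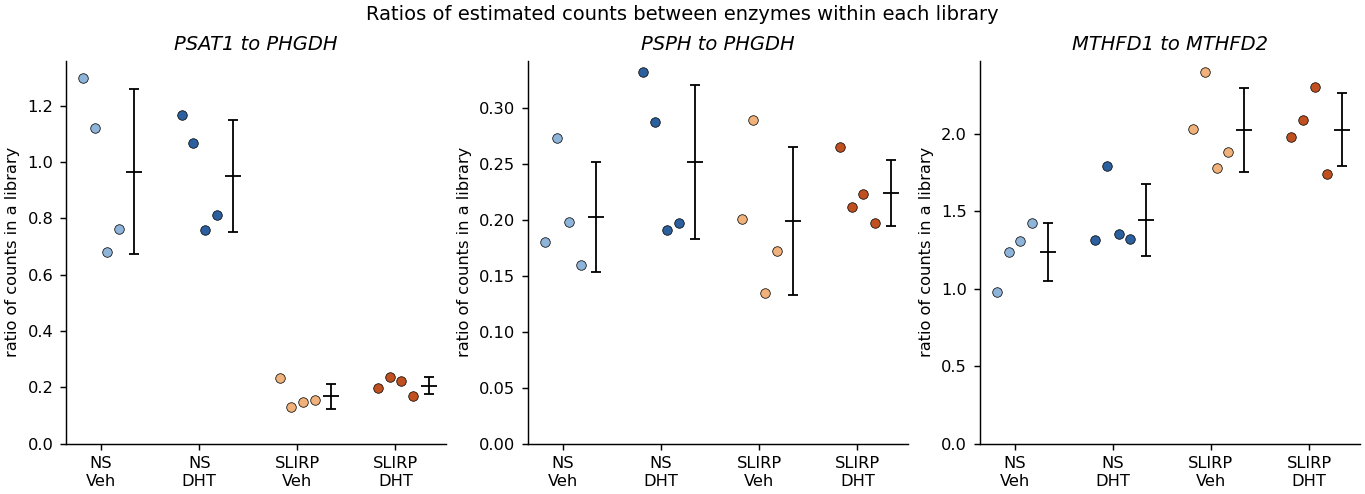
Ratio of estimated counts of 2 enzymes within each library (vertical axis, linear from 0, no unit) by siRNA and treatment; points are libraries and bars show mean ± SD of 4 libraries. PSAT1 to PHGDH separates the siRNAs (0.681 to 1.30 in NS, 0.131 to 0.236 in SLIRP), PSPH to PHGDH does not, and MTHFD1 to MTHFD2 is higher in most SLIRP libraries, with its ranges touching at 1.74 and 1.79. PSAT1 was chosen for its fall in these counts, so its ratio is a description.

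SHMT1, the cytosolic serine hydroxymethyltransferase, was at 66.1, 82.6, 72.6 and 85.3 CPM in NS-Veh and at 62.2, 103, 80.5 and 83.2 CPM in SLIRP-Veh, with overlapping groups. With DHT it was at 71.3, 80.2, 80.2 and 68.1 CPM in NS and at 110.4, 94.0, 106 and 95.1 CPM in SLIRP libraries. All 4 SLIRP libraries treated with DHT were above all 4 NS libraries treated with DHT. Over both treatments the log2 difference was 0.25 ± 0.11 (SE), with a 95% interval from 0.035 to 0.47, and missed the FDR of 0.01 (adjusted p = 0.0517 by edgeR). It passed without SLIRP-Veh replicate 1, with a log2 difference of 0.35 (adjusted p = 0.00362).

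SHMT2, the mitochondrial enzyme that supplies most one-carbon units in proliferating cells, had the narrowest interval of the tested members. It was at 262, 262, 236 and 259 CPM in NS-Veh, at 269.6, 272, 247 and 285 CPM in NS-1nM DHT, at 226, 268, 267 and 256 CPM in SLIRP-Veh and at 302, 302, 258 and 283 CPM in SLIRP-1nM DHT. The groups overlapped between siRNAs in both treatments. The log2 difference was 0.039 ± 0.068 (SE), with a 95% interval from −0.10 to 0.18 (adjusted p = 0.670 by edgeR).

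MTHFD1, the cytosolic enzyme that carries 3 activities on formyl-, methenyl- and methylenetetrahydrofolate, rose after SLIRP siRNA. It was at 108, 134, 133 and 147 CPM in NS-Veh and at 223, 226, 227 and 199.6 CPM in SLIRP-Veh. With DHT it was at 148, 173, 157 and 151 CPM in NS and at 258, 303, 304 and 252 CPM in SLIRP libraries. Every SLIRP library was above every NS library. The rise was 1.70-fold, or 0.76 ± 0.091 (SE) on the log2 scale with a 95% interval from 0.58 to 0.95 (adjusted p = 3.76e-08 by edgeR, higher in 8 of 8 libraries). It was 0.79 with replicates 1 and 2 alone and 0.76 with replicates 3 and 4 alone.

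MTHFD1L, the mitochondrial synthetase that releases formate, was read at 8 to 41 counts per library. Its CPM was 16.02, 33.0, 12.7 and 17.9 in NS-Veh and 24.3, 20.4, 32.2 and 22.8 in SLIRP-Veh. With DHT it was 21.0, 17.7, 20.1 and 16.1 in NS and 24.96, 24.2, 29.3 and 21.8 in SLIRP libraries. The groups did not overlap with DHT, and they overlapped with vehicle through NS-Veh replicate 2 alone. The log2 difference was 0.50 with vehicle and 0.42 with DHT, and neither passed (adjusted p = 0.129 and 0.169 by edgeR). Compared directly, the response to DHT differed between siRNAs by −0.078, with a 95% interval from −0.78 to 0.62. Over both treatments the log2 difference was 0.45 ± 0.17 (SE), with a 95% interval from 0.11 to 0.79, and missed the FDR of 0.01 (adjusted p = 0.0283 by edgeR). It passed without NS-Veh replicate 2, the library with the fewest counts and the highest MTHFD1L value, with a log2 difference of 0.52 (adjusted p = 0.00833).

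MTHFD2, the mitochondrial dehydrogenase and cyclohydrolase that is high in many cancers, was at 110.2, 109, 101 and 103 CPM in NS-Veh and at 109.6, 94.0, 128 and 106 CPM in SLIRP-Veh. With DHT it was at 112, 96.4, 116 and 114 CPM in NS and at 130.1, 145, 132 and 144 CPM in SLIRP libraries. As for SHMT1, the groups overlapped with vehicle and separated with DHT. The log2 difference over both treatments was 0.20 ± 0.088 (SE), with a 95% interval from 0.021 to 0.38 (adjusted p = 0.0616 by edgeR). MTHFD1 to MTHFD2 counts, a ratio of the cytosolic to the mitochondrial enzyme, had a median of 1.32 in NS and 2.01 in SLIRP libraries, with ranges of 0.982 to 1.79 and 1.74 to 2.40.

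ALDH1L2, the mitochondrial formyltetrahydrofolate dehydrogenase, was nearly undetected. It had 0 to 4 counts per library, 5 counts in all 8 NS libraries and 14 in all 8 SLIRP libraries, and it did not pass the filter on low counts. Nothing about its direction was detectable at this depth.

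Of the 9 members, 8 passed the filter on low counts and were tested among 10167 genes in the comparison of siRNAs. One of the 8, PSAT1, was lower, against 17.4% of all genes tested, and it was chosen for this value. Only MTHFD1 was higher at an FDR of 0.01, 1 of 8, against 17.8% of all genes tested. Of the 7 tested members that were not chosen by this contrast, all 7 had a positive log2 difference and none fell at an FDR of 0.01. The differences of PSPH (0.014) and SHMT2 (0.039) were smaller than their SE (0.11 and 0.068), and PSPH changed sign in 9 of 34 alternatives. The share of all genes with a positive difference was not counted, so nothing is read from this sign. The median over the 8 was 0.15 on the log2 scale, against −0.015 over all genes tested. The lowest bound of their 95% intervals was −0.21, so a fall of the size of PSAT1 lay outside each of the 7.

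**Figure D3:**
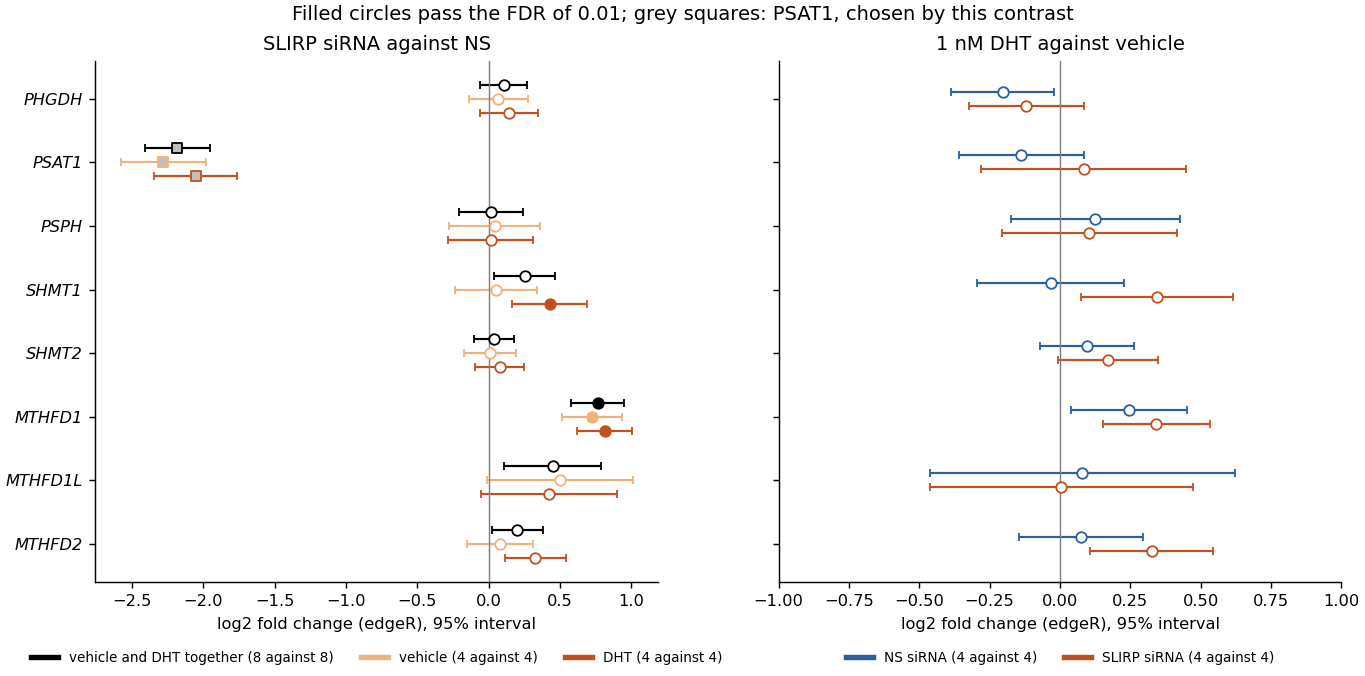
Log2 fold changes of the 8 tested members (horizontal axes, edgeR, bars show 95% intervals), for SLIRP siRNA against NS on the left and for DHT against vehicle on the right; filled circles pass an FDR of 0.01 and grey squares mark PSAT1, which was chosen by the contrast on the left. PSAT1 lies near −2 in each siRNA comparison, MTHFD1 lies between 0.73 and 0.81, and no member passes for DHT against vehicle. The PSAT1 intervals on the left follow its choice by these values and are no test.

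PSAT1, chosen for its fall in these libraries, is the 1 member counted as lower within each treatment. Of 10684 genes tested, 9.95% were lower with vehicle and 11.6% with DHT, and nothing is read from its call. With vehicle alone, MTHFD1 was the 1 member that rose (11.8% of genes did), by 0.73 ± 0.10 (SE) on the log2 scale (adjusted p = 7.53e-07 by edgeR). With DHT, 2 members rose (12.8% of genes did). These were MTHFD1, by 0.81 ± 0.095 (SE) on the log2 scale (adjusted p = 1.14e-08), and SHMT1, by 0.43 ± 0.13 (adjusted p = 0.00972), both by edgeR. The SHMT1 call was marginal and was lost in 13 of 31 alternative analyses, with adjusted p between 0.0042 and 0.111. It was lost on leaving out NS-1nM DHT replicate 1 (0.42, adjusted p = 0.0228) or 4 (0.40, adjusted p = 0.0292), SLIRP-Veh replicate 3 (0.44, adjusted p = 0.0101) or SLIRP-1nM DHT replicate 1 (0.40, adjusted p = 0.0285), 2 (0.46, adjusted p = 0.0111) or 3 (0.40, adjusted p = 0.0329). MTHFD2 was at 0.33 ± 0.11 (SE) with DHT and just missed the threshold (adjusted p = 0.0143 by edgeR). It passed with RLE normalization (0.34, adjusted p = 0.00971), without NS-Veh replicate 1 (0.35, adjusted p = 0.00989) or SLIRP-Veh replicate 2 (0.34, adjusted p = 0.00955).

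The second question was whether androgen moved these enzymes. In NS cells, no member passed an FDR of 0.01 for DHT against vehicle by edgeR or by DESeq2, whereas 1.31% of 10367 genes passed by edgeR in either direction. At an unadjusted p of 0.05, 2 of the 8 tested members passed by edgeR, against 1478 of all 10367 genes tested, and 0 members by DESeq2. The 2 were PHGDH, with a log2 difference of −0.20 (95% interval from −0.39 to −0.020, adjusted p = 0.279), and MTHFD1, at 0.25 (0.040 to 0.45, adjusted p = 0.228), whose 4 DHT libraries were all above the 4 vehicle libraries. PSAT1 was at −0.14 (−0.36 to 0.085, adjusted p = 0.645), and without the 2 shallowest NS-Veh libraries it was at 0.089, a choice made after the data were seen.

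In SLIRP cells, again no member passed for DHT against vehicle by edgeR or DESeq2, against 1.17% of 10684 genes in either direction by edgeR. At an unadjusted p of 0.05, 3 members passed by edgeR, against 1663 of all 10684 genes tested, and 3 members by DESeq2. The 3 that passed this unadjusted p by edgeR each had a positive difference. MTHFD1 was at 0.34 (95% interval from 0.15 to 0.53, adjusted p = 0.0334) and MTHFD2 at 0.33 (0.11 to 0.54, adjusted p = 0.0945), both without overlap between DHT and vehicle libraries. SHMT1 was at 0.35 (0.075 to 0.62, adjusted p = 0.172), with overlap. PSAT1 was at 0.084 (−0.28 to 0.45, adjusted p = 0.881).

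The response to DHT was then compared between siRNAs directly. No member differed at an FDR of 0.01 by edgeR or DESeq2, and 0.00% of genes did by edgeR and 0 genes by DESeq2. By edgeR, 0 of the 8 members and 388 of all 10684 genes passed an unadjusted p of 0.05. For SHMT1, which passed the siRNA comparison with DHT and not with vehicle, the difference in response was 0.37, with a 95% interval from −0.018 to 0.76 (adjusted p = 1.00). For MTHFD2 it was 0.25 (−0.070 to 0.56) and for PSAT1 0.23 (−0.21 to 0.66). A dependence of the siRNA difference on androgen was therefore not detectable for these enzymes at this depth.

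The wider one-carbon network was followed through 44 further genes in 5 lists, of which 35 passed the filter. Of these, 6 fell and 9 rose after SLIRP siRNA, with a median of 0.10 on the log2 scale, against −0.015 over all genes tested. The shares called, 6 and 9 of 35, stand against 17.4% and 17.8% of all genes. These lists were chosen with earlier results of these data known, so their counts are a description. The lists moved in both directions. Of the called genes named from them, GGH, SLC46A1, DLD and MTR passed over 8 against 8 libraries but in neither treatment alone.

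Of 15 genes of the folate cycle and folate transport, 12 were tested, 3 rose and 2 fell. TYMS, which makes thymidylate with methylenetetrahydrofolate as the donor, rose by 2.22 ± 0.15 (SE) on the log2 scale, from 31.2 ± 15.3 CPM (SD, n = 8) in NS to 157 ± 21.99 CPM in SLIRP libraries (adjusted p = 7.19e-13 by edgeR). GGH, a hydrolase of folate polyglutamates, rose by 0.82 ± 0.25 (adjusted p = 0.00833), but from 0 to 14.6 CPM in NS libraries, close to the smallest level that the depth can show. SLC46A1, a proton-coupled folate transporter, fell by 0.32 with an SE of 0.090 (adjusted p = 0.00359).

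In the glycine cleavage system, 2 of 4 genes were tested and DLD, a dihydrolipoyl dehydrogenase shared with other mitochondrial complexes, rose by 0.29 ± 0.078 (SE) on the log2 scale (adjusted p = 0.00298 by edgeR). In the methionine cycle and transsulfuration, 8 of 11 genes were tested, with 1 rise and 1 fall. MTR, methionine synthase, rose by 0.32 ± 0.097 (adjusted p = 0.00686), and MAT2B, the regulatory subunit of methionine adenosyltransferase, fell by 0.63 with an SE of 0.12 (adjusted p = 9.07e-05).

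Among genes that use serine, 7 of 8 were tested, 1 rose and 2 fell, all 3 of them subunits of serine palmitoyltransferase, which joins serine to palmitoyl-CoA at the start of sphingolipid synthesis. SPTLC1, the common subunit, fell by 1.196 on the log2 scale with an SE of 0.13, from 88.1 ± 13.1 CPM (SD, n = 8) to 39.0 ± 12.3 CPM (adjusted p = 1.16e-08 by edgeR). SPTLC2, a catalytic subunit, fell by 0.77 with an SE of 0.10 (adjusted p = 3.84e-07). SPTLC3, the alternative catalytic subunit, rose by 0.96 ± 0.18, from 15.8 ± 3.86 to 31.2 ± 7.82 CPM (adjusted p = 5.70e-05). This rise was 1.38 with vehicle (adjusted p = 1.72e-05 by edgeR), and the difference with DHT was 0.52 and did not pass (adjusted p = 0.0785). The response of SPTLC3 to DHT, compared directly between siRNAs, differed by −0.86 with an SE of 0.34 and did not pass. A dependence of its siRNA difference on androgen was therefore not detected.

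All 6 genes of purine synthesis were tested, and 3 rose and 1 fell. PPAT, which catalyses the first committed step, rose by 0.58 ± 0.085 (SE) on the log2 scale (adjusted p = 1.22e-06 by edgeR). GART, which uses formyltetrahydrofolate, rose by 0.42 ± 0.092 (adjusted p = 0.000384). ATIC, which also uses it and is named outside the rule after its value was seen, rose by 0.34 ± 0.076 (adjusted p = 0.000493). PAICS fell by 0.89 with an SE of 0.073, from 776 ± 49.9 CPM (SD, n = 8) in NS to 422 ± 61.6 CPM in SLIRP libraries (adjusted p = 2.65e-11). PPAT (minus strand) and PAICS (plus strand) are divergent neighbours on hg19 chr4 whose annotated starts lie 126 bp apart, and they changed in opposite directions.

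**Figure D4:**
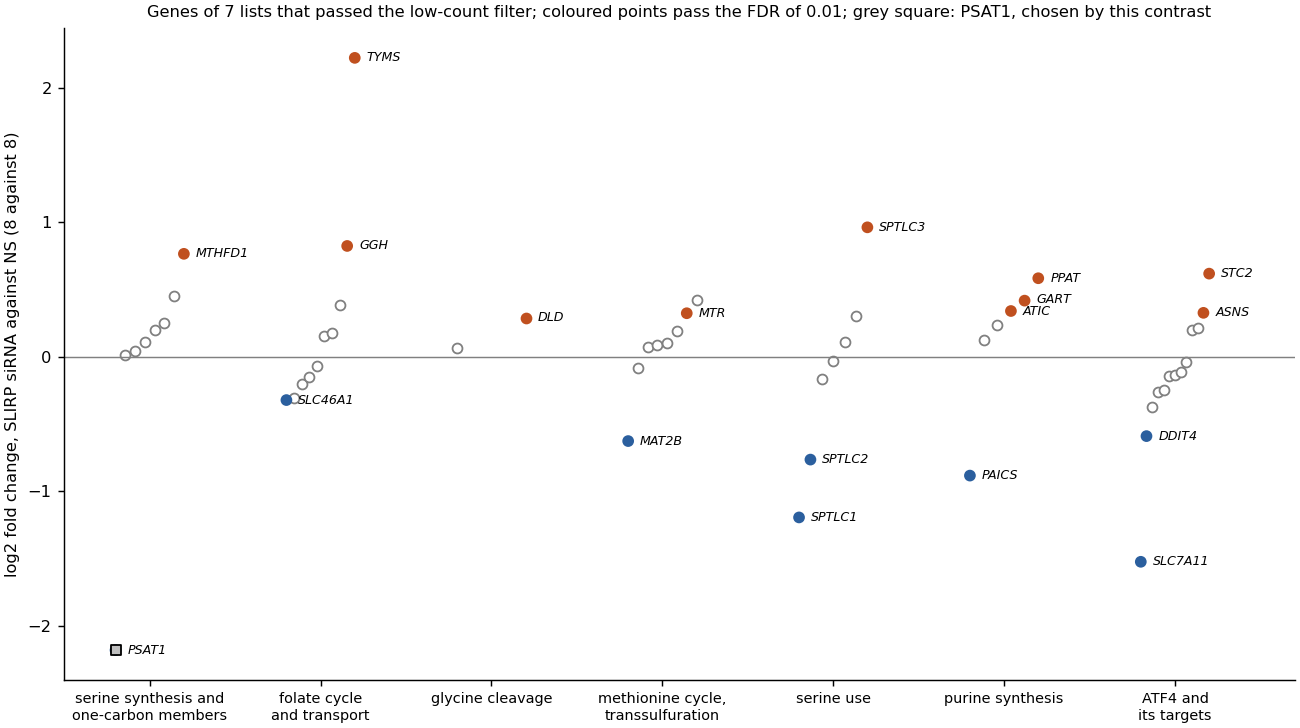
Log2 fold change for SLIRP siRNA against NS (vertical axis, edgeR, 8 against 8 libraries) of genes in 7 lists that passed the filter on low counts, sorted within each list; red and blue points rose or fell at an FDR of 0.01, open points did not pass, and the grey square is PSAT1, chosen by this contrast. Each list with at least 6 tested genes has named points on both sides of 0, with TYMS at 2.22 and SLC7A11 at −1.53 farthest out among the genes other than PSAT1.

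ATF4 and its known targets were examined because several members belong to them. This list too was chosen with earlier results of these data known, so its counts are a description. ATF4 mRNA was at 370 ± 23.95 CPM (SD, n = 8) in NS and 422 ± 37.4 CPM in SLIRP libraries, with overlap, a log2 difference of 0.20 ± 0.064 (SE) that missed the threshold (adjusted p = 0.0126 by edgeR). Of the 14 genes in the list, 13 were tested, 2 rose and 2 fell, near the 17.8% and 17.4% of all genes tested, with a median of −0.14 on the log2 scale. STC2, a secreted glycoprotein, rose by 0.62 ± 0.12 (adjusted p = 5.52e-05), and ASNS, asparagine synthetase, rose by 0.32 ± 0.080 (adjusted p = 0.00130). Within treatments ASNS was at 0.20 with vehicle, which did not pass (adjusted p = 0.164 by edgeR), and at 0.45 with DHT (adjusted p = 0.000770). Compared directly, its response to DHT differed between siRNAs by 0.25 ± 0.15 (SE), which did not pass the FDR of 0.01. SLC7A11, the cystine transporter subunit, fell by 1.53 with an SE of 0.10, from 268 ± 45.8 to 91.6 ± 14.6 CPM (adjusted p = 3.28e-13), and DDIT4, an inhibitor of mTORC1, fell by 0.59 with an SE of 0.11 (adjusted p = 2.95e-05). TRIB3 and DDIT3, further targets in the list, had log2 differences of −0.14 with an SE of 0.13 and −0.38 with an SE of 0.21. Neither passed (adjusted p = 0.425 and 0.139 by edgeR), and DDIT3 had at most 28 counts in a library. They are named outside the rule after their values were seen, and the part of ATF4 was not tested.

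For DHT against vehicle, 1 of 34 tested pathway genes passed in NS cells, against 1.31% of all genes tested. In SLIRP cells PAICS alone of 36 passed, rising by 0.34 ± 0.077 (SE) on the log2 scale (adjusted p = 0.00759 by edgeR), against 1.17% of all genes tested.

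Markers of 2 other processes differed between siRNAs together with these enzymes. The lists of both were chosen with earlier results of these data known, so their counts are a description. Of 8 proliferation genes all 8 were tested and rose after SLIRP siRNA, against 17.8% of all genes tested. MKI67 rose by 1.82 ± 0.13 (SE) and TOP2A by 1.82 ± 0.14 on the log2 scale. The summed level of this list was 230.3 to 699 CPM in NS and 1192 to 1764 CPM in SLIRP libraries. TYMS and MTHFD1, which supply thymidylate and folates, differed in the same direction, and the part of proliferation in these differences was not tested. Of 8 interferon-stimulated genes 7 were tested and all 7 fell, against 17.4% of all genes tested. The log2 differences were −4.29 for IFIT1 and −3.74 for IFI6. This list summed to 749 to 1107 CPM in NS and 187 to 239 CPM in SLIRP libraries. Both lists separated the siRNAs, as PSAT1 did, and their part in the PSAT1 difference was not tested. Of the 10 LNCaP markers, 4 fell over 8 against 8 libraries by edgeR, against 17.4% of all genes, with a median of −0.40 on the log2 scale. Within treatments 6 fell and 1 rose with vehicle, against 9.95% and 11.8% of all genes tested. With DHT 6 fell and 3 rose, against 11.6% and 12.8%. The marker that rose with vehicle was KLK3, by 1.11 (adjusted p = 1.04e-06 by edgeR), and those that rose with DHT were KLK3 by 0.37, KLK2 by 0.92 and TMPRSS2 by 0.50, named after their values were seen.

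The genes whose levels over the 16 libraries were most like that of PSAT1 were named by the highest Pearson correlation of log2 CPM among 2696 genes whose counts averaged 100 or more. They were FBXL17 (an F-box protein, r = 0.989), STEAP2 (a metalloreductase abundant in prostate, 0.984), HINT3 (0.981), CLIC4 (0.981) and RMND5A (0.979). The libraries share the siRNA contrast, and so the correlation chiefly describes it. After the group means were taken out, r with PSAT1 was 0.79, 0.89, 0.48, 0.77 and 0.57 in the same order. FBXL17 lay between 821 and 1092 CPM in NS and between 299 and 414 CPM in SLIRP libraries, and STEAP2 between 2226 and 3056 and between 1002 and 1300. Of the other members, 4 reached that mean count, and none of these was among the genes most like PSAT1. Over the same 16 libraries r with PSAT1 was −0.88 for MTHFD1, −0.29 for PHGDH, −0.20 for SHMT2 and −0.40 for MTHFD2, and among these 4 only MTHFD2 had a positive r once the group means were taken out, at 0.40.

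How reads were assigned limits some of these values. The annotation names 4 pseudogenes of PSAT1, 7 of MTHFD2 and 1 each of PSPH, SHMT1 and MTHFD1, to which reads could be split or from which they could come. SHMT1, SHMT2, MTHFD1, MTHFD1L, MTHFD2 and ALDH1L2 overlap genes on the opposite strand, and whether strand was used in counting is not given in the sources used here, so that reads of the overlapping parts cannot be told apart.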

How the data were processed

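RNA-seq of 16 LNCaP libraries was analysed from the deposited estimated counts. The submitters' processing notes name CASAVA, RSEM and hg19 without versions. Counts in the deposited table are whole numbers for 20531 entries, of which 29 have no symbol (at most 0.042% of counts). These 29 were kept in the fits where they passed the filter and were left out only of the ranking by likeness to PSAT1. The authors also deposited a normalized table, a score on a linear scale for 13148 genes, equal to 1000 times the count over the upper quartile of its library; it was used only as an alternative.

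Counts were tested with edgeR 4.0.16 in R 4.3.3 (TMM, filterByExpr, quasi-likelihood F test, Benjamini-Hochberg adjustment over all genes, FDR of 0.01). The siRNAs were compared over 8 against 8 libraries without covariates, androgen and vehicle in NS cells over those 8 libraries alone, and the other contrasts came from a 4-group model. CPM were scaled by the TMM library sizes of genes that passed the filter, and log2 CPM used a prior count of 2. Alternatives were DESeq2 1.42.0, limma 3.58.1 on the normalized table (pseudocount 1 or 0.1), upper-quartile and RLE normalization, other filters, an FDR of 0.05, only the groups compared, the replicate block, a treatment covariate, and leaving out libraries. Models were tested on simulated data with known changes. Gene positions and canonical transcript lengths are from GENCODE on hg19. All columns were mapped to samples, and columns of no sample numbered 0.

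The members and gene lists were chosen with earlier results of these data known. Named genes were the 9 members, SLIRP, ATF4, up to 2 largest rises and 2 largest falls in each list at the FDR, and the 5 genes most like PSAT1. A few genes of the lists are not reported here: they were fitted and counted with the rest, but are neither named nor plotted. Replicates of a group differed by more than counting noise, the chi-square divided by its degrees of freedom being 1.21 to 2.37.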

Additional observations from a re-analysis of the deposited data

Results flagged for a closer look

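Single libraries that stood apart from the other 3 of their group by Dixon's test were found in 4 of the 36 sets of 4 libraries (9 enzymes in 4 groups), where chance flags about 1 in 20. ALDH1L2 was at 3.15 CPM in NS-1nM DHT replicate 1 and at 0 in the other 3 libraries, and at 5.69 CPM in SLIRP-1nM DHT replicate 2 against 0.806 to 1.31 CPM in the others; these values rest on 3 and 4 counts. MTHFD1 was at 199.6 CPM in SLIRP-Veh replicate 4 against 223 to 227 CPM in the others, still above every NS library. SHMT2 was at 236 CPM in NS-Veh replicate 3 against 259 to 262 CPM in the others. A difference between siRNAs in the response to DHT was not detected for any member at an FDR of 0.01.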

How the results depend on the processing

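The lower level of PSAT1, given as a description, kept its direction and the rise of MTHFD1 its direction and its call in all 34 alternatives for 8 against 8 libraries, 32 for vehicle and 31 for DHT. Over these the log2 difference was −2.36 to −1.999, −2.54 to −2.05 and −2.14 to −1.94 for PSAT1 and 0.71 to 0.83, 0.60 to 0.92 and 0.77 to 0.88 for MTHFD1. Of 1151 values of 37 single-gene results, 1078 kept direction and side, 13 lost their call, 8 gained one and 52 changed sign, and the cause was not tested.

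Members that rose after SLIRP siRNA numbered 2 at an FDR of 0.05 and 1 to 2 on leaving out libraries. With DHT they numbered 1 with upper-quartile normalization, with DESeq2, with only replicates 1 and 2 and with only replicates 3 and 4, and 1 to 3 on leaving out libraries, and 3 with RLE normalization and at an FDR of 0.05. In SLIRP cells 1 member rose with DHT at an FDR of 0.05. Pathway genes that rose numbered 4 with only replicates 1 and 2 and 5 with only replicates 3 and 4, fits with fewer samples.

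Small log2 differences changed sign. With upper-quartile normalization SHMT2 with vehicle was −0.0054 and PSPH with DHT −0.00013. SHMT2 with vehicle was −0.00016 with the replicate block and −0.0013 with only the groups compared. With limma on the normalized table PSPH between siRNAs was −0.0093 and SHMT1 for DHT in NS cells 0.0093, at both pseudocounts. With only replicates 1 and 2, PSPH was −0.076 over all libraries and −0.13 with DHT, and with vehicle SHMT2 was −0.090, MTHFD1L −0.031 and MTHFD2 −0.042; for DHT in NS cells SHMT1 was 0.057 and MTHFD2 −0.074. With only replicates 3 and 4, PSPH with vehicle was −0.038. Without the 2 shallowest NS-Veh libraries PHGDH with vehicle was −0.012 and PSAT1 for DHT in NS cells 0.089. On leaving out libraries PSPH ranged from −0.060 to 0.080 over all libraries, from −0.055 to 0.15 with vehicle and from −0.045 to 0.12 with DHT. With vehicle SHMT1 ranged from −0.061 to 0.20, SHMT2 from −0.072 to 0.084 and MTHFD2 from −0.021 to 0.12; for DHT against vehicle SHMT1 in NS cells ranged from −0.11 to 0.090 and PSAT1 in SLIRP cells from −0.031 to 0.29.

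Single replicate numbers were not taken as pairs: over 6965 genes, 6 of 16 same-numbered pairs had a correlation above 0.1 (3 of the 4 between NS-Veh and NS-1nM DHT) and 7 libraries correlated best with their own number. Replicates 1 and 2 stood apart from 3 and 4; with this split as a block no call of a member changed, and pathway genes that rose numbered 10. With the replicate block the members called were unchanged in number in every comparison (1 and 1 between siRNAs, 1 and 2 with DHT), and pathway genes that rose numbered 10 in place of 9. The block on that split, the fits to replicates 1 and 2 or 3 and 4 alone, and the removal of the 2 shallowest libraries were chosen after the data were seen. Depth limits MTHFD1L and ALDH1L2 most. Ranked by Spearman in place of Pearson correlation, FBXL17, STEAP2, HINT3, CLIC4 and RMND5A were at places 4, 11, 62, 16 and 7 among the genes most like PSAT1.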
